A study of Mus musculus with 8 samples.

Results

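The genes described here are those for chemokine ligands, taken as every gene of the deposited table whose name starts with Cxcl or Ccl and a digit, plus *Cx3cl1* and *Xcl1*. The rule found 47 rows among 53465 genes, with 41 different names, since 7 rows lie on unplaced scaffolds and most of these repeat a name from a main chromosome. A gene was taken as detected when it had 10 or more counts in at least 2 of the 8 libraries. That held for 13 of the 47, against 14431 of the 53465 genes in all. The 13 were *Cxcl1*, *Cxcl5*, *Cxcl10*, *Cxcl12*, *Cxcl15* and *Cxcl16* among the CXC ligands, *Ccl2*, *Ccl5*, *Ccl9*, *Ccl20*, *Ccl25* and *Ccl27a* among the CC ligands, and *Cx3cl1*.

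The libraries are bulk RNA-seq of B73 and B87, 2 pancreatic ductal adenocarcinoma (PDAC) lines grown from primary tumors of the KC-shSmad4 mouse model. All cells carried Ptf1a-Cre, which acts in the pancreatic lineage, the Rosa26-LSL-rtTA3-IRES-mKate2 (RIK) allele and, at *Col1a1*, a doxycycline (Dox)-inducible, GFP-linked shRNA against *Smad4*, so no group lacks the hairpin. Cells held on Dox were Smad4 off and cells 5 days without it were Smad4 on, and each was then given 24 h of 100 pM TGFβ1 or of 2.5 µM SB505124, which blocks the kinase of the type I TGFβ receptor. This gives 4 groups with 2 libraries each, 1 from each line. There were no untreated cells, so TGFβ1 is compared throughout with blocked TGFβ signaling, and the effect of Dox itself and that of *Smad4* cannot be told apart. The sources do not say which of the 2 hairpins each line carries, and each line is 1 culture series, so every p-value measures the spread between these libraries.

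Chemokines are small secreted proteins that steer leukocytes along concentration gradients by binding G protein-coupled receptors on the migrating cell. Tumor epithelial cells are a known source of several of them. Ligands of CXCR2, such as CXCL1, CXCL2, CXCL3 and CXCL5, draw neutrophils, CCL2 and CCL7 draw monocytes through CCR2, CCL20 acts on CCR6, CXCL9, CXCL10 and CXCL11 draw activated T cells through CXCR3, and CXCL12 binds CXCR4. Many inflammatory chemokine genes are classical targets of the transcription factor NF-κB.

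Library totals ran from 18389235 to 23440550 counts, of which the chemokine ligand genes together took 0.00537% to 0.0137%. Levels are given as CPM, the counts of a gene relative to its library total with TMM scaling, and 3 counts, the smallest number taken as a level, correspond to 0.125 to 0.162 CPM, for counting error only. *Smad4* stood at 34.3 ± 0.87 CPM (SD, n = 2) in Smad4-off and 106 ± 11.6 CPM in Smad4-on cells under SB505124, and at 35.1 ± 0.602 and 116 ± 1.06 CPM under TGFβ1, in the direction of the labels in both lines. All 7 epithelial markers checked were detected, at 1170 to 6180 CPM in sum. Keratins carried most of it, while *Epcam* was at 0.153 to 2.11 CPM and *Cldn4* at 0 in all 4 SB505124 libraries. The leukocyte list (10 genes) summed to 1.84 to 6.89 CPM with only *Cd68* detected and *Cd3e* and *Adgre1* at 0, and the acinar list (5 genes) to 0.408 to 1.33 CPM with 1 detected. The fibroblast and stellate list (7 genes, 3 detected, *Lum* at 0) summed to 1.51 to 647 CPM, in B87 mostly *Col1a1*, and was highest in the B87 TGFβ1 Smad4-on library. The endothelial list (5 genes, 2 detected, *Emcn* at 0) summed to 0.702 to 26.1 CPM. In bulk RNA, fewer cells of a type and less RNA per cell cannot be told apart.

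The sequences before the start sites of the ligand genes that responded are shown first, because the genes fall into sets with and without a match to the NF-κB consensus. RefSeq promoters (build GRCm38.p6, 250 bases before to 50 after the start site) were at hand for 9 of the 13 detected genes, and for 5 of the 9 called in at least 1 of the TGFβ1 and *Smad4* comparisons below, *Ccl9*, *Ccl20*, *Cxcl1*, *Cxcl12* and *Cxcl15*. *Ccl2*, *Ccl5*, *Cxcl5* and *Cxcl16* were not among them. The last 120 bases before the start site are printed 5′ to 3′ on the gene's own strand. Capitals mark the NF-κB consensus in *Cxcl1*, *Ccl20* and *Ccl9*, the TATA box TATAAA in *Cxcl15* and the GC box GGGCGG, on either strand, in *Cxcl12*.
Cxcl1 (chr5:90891125-90891244, plus strand): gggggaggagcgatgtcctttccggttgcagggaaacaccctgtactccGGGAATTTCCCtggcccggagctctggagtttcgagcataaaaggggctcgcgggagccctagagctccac
Cxcl15 (chr5:90794414-90794533, plus strand): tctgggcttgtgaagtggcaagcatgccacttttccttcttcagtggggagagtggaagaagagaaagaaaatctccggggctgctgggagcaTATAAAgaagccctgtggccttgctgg
Ccl20 (chr1:83116646-83116765, plus strand): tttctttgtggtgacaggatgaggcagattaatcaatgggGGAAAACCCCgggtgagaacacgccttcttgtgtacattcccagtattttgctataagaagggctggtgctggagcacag
Ccl9 (chr11:83578637-83578756, minus strand): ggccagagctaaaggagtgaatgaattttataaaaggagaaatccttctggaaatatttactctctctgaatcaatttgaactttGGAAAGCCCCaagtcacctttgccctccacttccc
Cxcl12 (chr6:117168415-117168534, plus strand): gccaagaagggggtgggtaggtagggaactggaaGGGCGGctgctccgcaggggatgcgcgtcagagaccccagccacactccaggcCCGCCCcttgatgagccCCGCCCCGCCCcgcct

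Over the full 300 bases and on both strands, the NF-κB consensus was matched in 8.46% of all 32851 RefSeq promoters. *Cxcl1* held it as 2 overlapping matches at positions -71 to -61 from the start site, *Ccl20* held 1 match at -80 to -71, and *Ccl9* held 1 at -35 to -26. *Cxcl10*, whose promoter is not printed, held 3 matches, of which 2 overlap, and 1 of the 3 tabulated promoters of *Ccl27a* held 1. The letters were not in the windows of *Cxcl12*, *Cxcl15*, *Cx3cl1* or *Ccl25*. The AP-1 site TGANTCA, found in 7.81% of all promoters, lay in those of *Ccl9*, *Cxcl10* and *Ccl27a*. The SMAD-binding CAGA box AGCCAGACA (0.387% of promoters) and the palindrome GTCTAGAC (0.213%) were matched in none of the windows of the 9 genes. The GC box GGGCGG, present in 35.7% of all promoters, occurred 5 times in the *Cxcl12* window and never in that of *Cxcl1*, *Cxcl15*, *Ccl20* or *Ccl9*. It also lay in windows of *Ccl27a* and *Cx3cl1*. TATAAA, present in 13.6%, was matched once in the *Cxcl15* window and 3 times in that of *Ccl9*, and also in windows of *Ccl25* and *Cx3cl1*. The E-box CACCTG, present in 20.2%, was matched in the *Ccl20* window and in windows of *Ccl27a*. These matches are descriptions of letters and not of binding.

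Of the 34 ligand genes that were not detected, 20 had 0 counts in all 8 libraries, which allows up to 3 counts in each. The 20 comprise the 7 scaffold copies and *Ccl3*, *Ccl11*, *Ccl12*, *Ccl19*, *Ccl19-ps1*, *Ccl19-ps3*, *Ccl21a*, *Ccl21b*, *Ccl22*, *Ccl24*, *Ccl26*, *Ccl27b* and *Xcl1*. The other 14 had at least 1 count and none exceeded 13 in any library. They were *Ccl1*, *Ccl4*, *Ccl6*, *Ccl7*, *Ccl8*, *Ccl17*, *Ccl28*, *Cxcl2*, *Cxcl3*, *Cxcl9*, *Cxcl11*, *Cxcl13*, *Cxcl14* and *Cxcl17*. Just outside the limit lay the 3 with a single library at 10 or more, *Ccl7* with a highest count of 13, *Cxcl3* with 12 and *Cxcl17* with 10. Just inside it lay *Ccl5*, with 10, 22, 18 and 39 counts in its 4 libraries above the limit. None of the 34 passed the filter on low counts, and all 13 detected genes did, so those 13 are the ones tested.

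Per kilobase of gene model, the mean level over all 8 libraries was highest for *Ccl2* (7.36 CPM per kb), followed by *Cx3cl1* (5.54), *Cxcl1* (4.66), *Cxcl16* (4.39) and *Cxcl12* (3.19), and lowest for *Ccl27a* (0.404). The order changed with condition. In Smad4-off cells under SB505124, *Cxcl1* led with 12.3 CPM per kb, ahead of *Cx3cl1* with 6.36. In Smad4-off cells under TGFβ1, *Ccl2* led with 22.0 CPM per kb, ahead of *Cxcl16* with 7.81. In Smad4-on cells under TGFβ1, *Cxcl12* stood at 6.48, *Cxcl16* at 5.16, *Cx3cl1* at 3.97, *Ccl2* at 2.27 and *Cxcl1* at 0.544 CPM per kb. The *Cxcl12* level came from B73 alone, as described below.

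**Figure D1:**
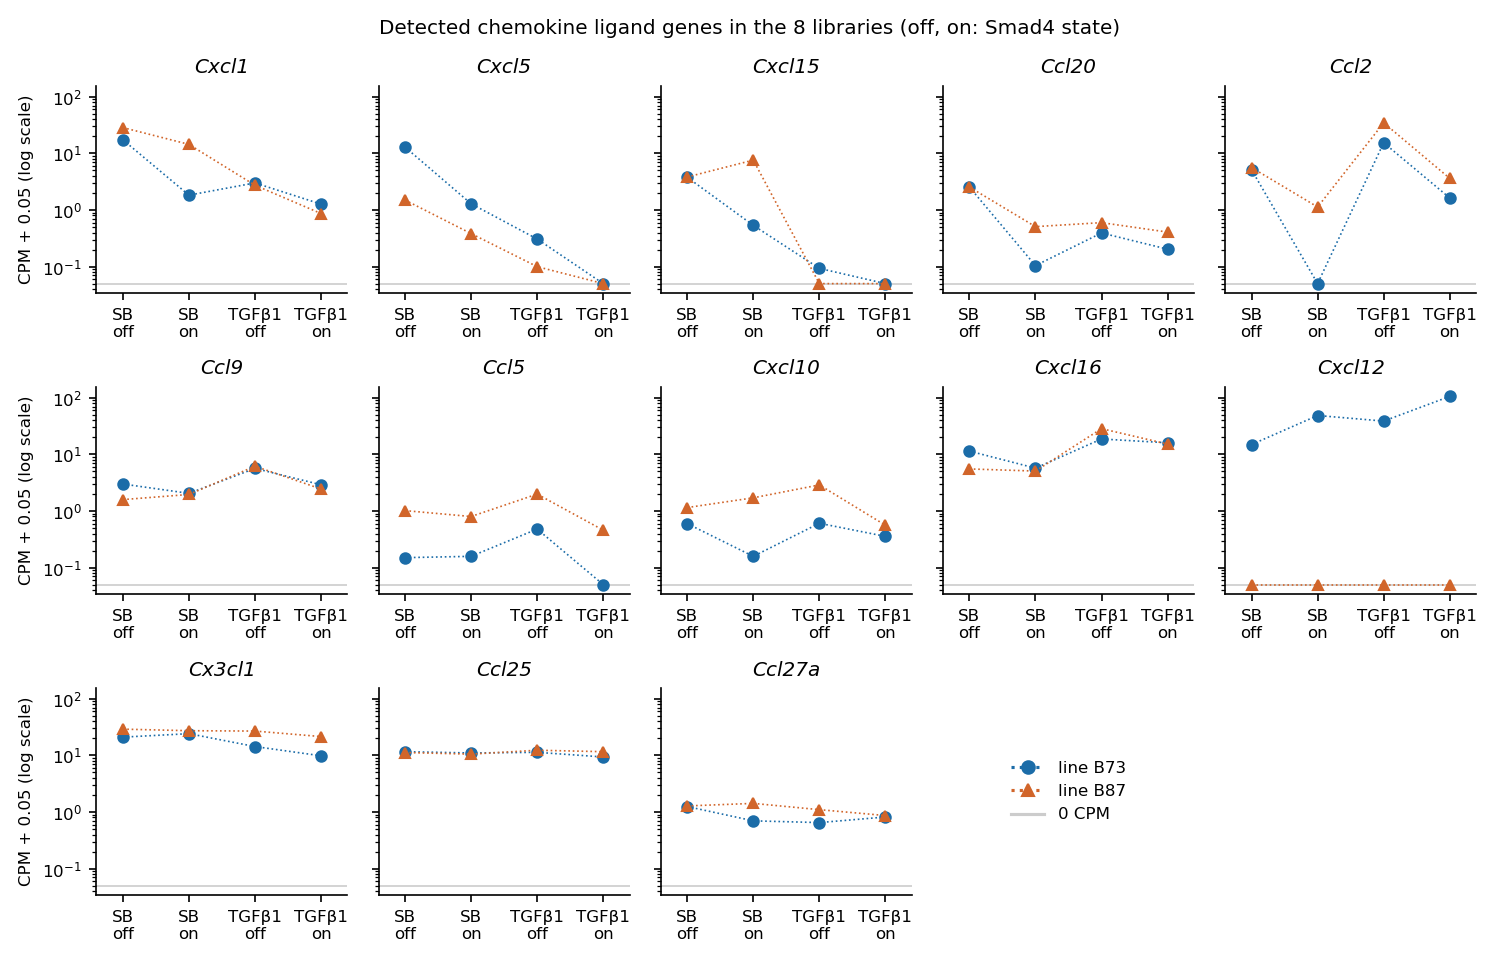
Level of each of the 13 detected chemokine ligand genes in the 8 libraries, as CPM plus 0.05 on a log axis, against the 4 groups (SB, SB505124). Blue circles are B73 and orange triangles B87, dotted lines join libraries of 1 line and the grey line marks 0 CPM. *Cxcl5* falls from left to right in both lines, with 6 or fewer counts in each TGFβ1 library. *Ccl2* peaks in Smad4-off cells under TGFβ1 (15.4 and 34.7 CPM), and *Cxcl12* is at 0 CPM in all 4 B87 libraries.

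Differences were tested with edgeR's quasi-likelihood F-test on all 14301 genes that passed the filter, with the line in the model. Calls required both a change of more than 2-fold and a p below 0.05 after Benjamini-Hochberg adjustment. Log2 fold changes are given with their standard error (SE). Adjusted p-values below come from this test unless another is named.

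TGFβ1 in Smad4-off cells moved 8 of the 13 detected ligands against SB505124, the most of any comparison. *Ccl2*, *Ccl9*, *Cxcl12* and *Cxcl16* rose, 4 genes where 3.11% of all tested genes were called higher, and *Cxcl1*, *Cxcl5*, *Cxcl15* and *Ccl20* fell, 4 where 2.82% of all were called lower. The median log2 fold change was 0.05 over the 13 and -0.02 over all genes, so the ligands moved in both directions. In Smad4-on cells TGFβ1 moved 6. *Ccl2*, *Cxcl12* and *Cxcl16* rose, with 5.62% of all genes called higher, and *Cxcl1*, *Cxcl5* and *Cxcl15* fell, with 8.31% called lower. The median was -0.33 over the 13 and -0.02 over all genes. Without the line in the model the counts were 0 and 1 (*Cxcl16*, adjusted p = 0.046), with 6 and 4 ligands at an unadjusted p under 0.05. DESeq2 with the line called 6 and 4. The edgeR counts of 8 and 6 each include *Cxcl12*, whose counts came from B73 alone, so that call has no replicate.

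Restoring *Smad4* moved fewer ligands. Under TGFβ1, *Ccl2* and *Ccl5* fell and *Cxcl12* rose, with 1.8% of all genes called lower and 1.31% higher. The *Cxcl12* call rests on B73 alone here as well. The other 10 ligands did not pass under TGFβ1, although 12 of the 13 fitted values were negative and the median was -1.17 against -0.01 over all genes (-0.71 over 12 ligands with *Cxcl5* at its bound and *Cxcl15*, under the floor in both groups, left out). Under SB505124, *Cxcl5* and *Ccl20* fell and none rose, with 0.455% of all genes called lower and 0.636% higher, and the median was -0.29 against 0 over all genes. Without the line both counts were 0, with 2 ligands in each at an unadjusted p under 0.05. DESeq2 with the line called 0 under TGFβ1 and 3 under SB505124, and its own filter gave *Ccl5* no adjusted p in either. Each group enters 2 of these 4 comparisons, so their values are set side by side and are not independent of each other.

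**Figure D2:**
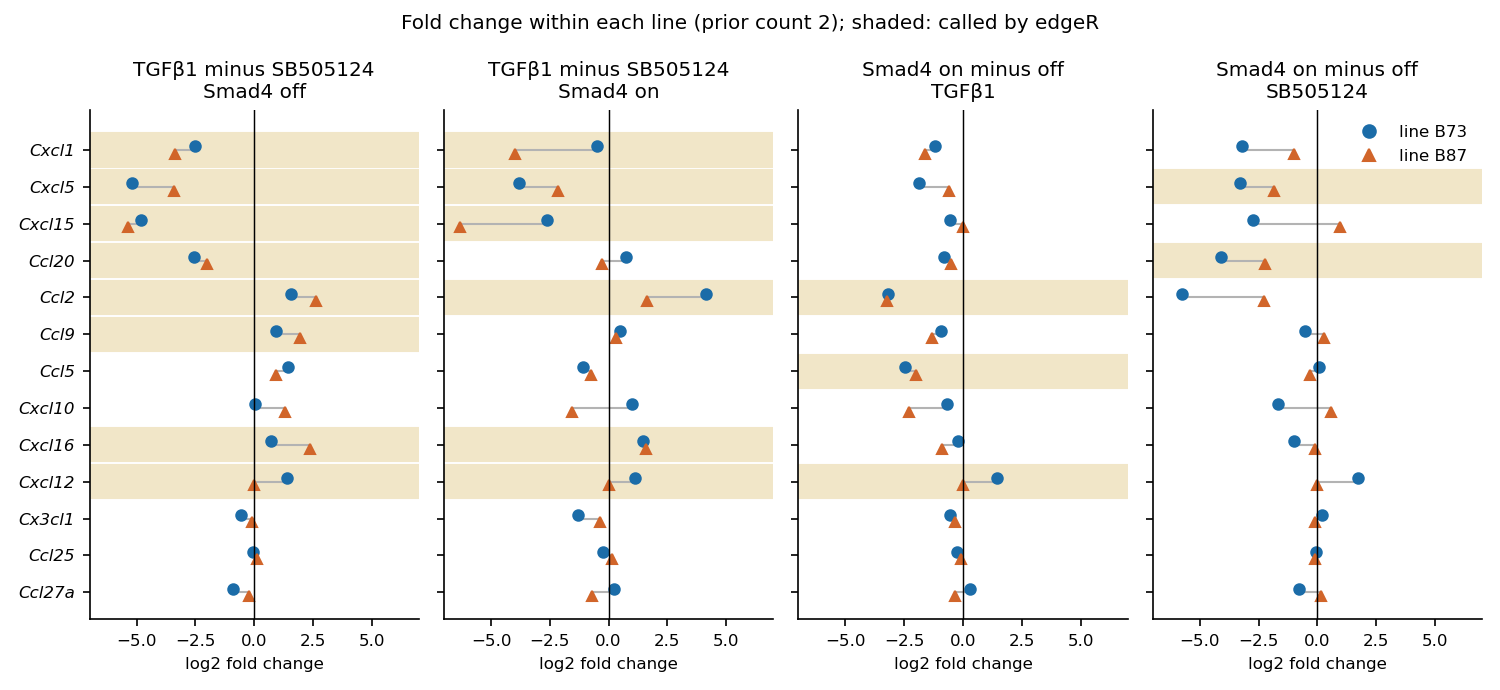
Log2 fold change of the 13 detected ligands within each line (log2 CPM, prior count 2) in 4 comparisons, with B73 as blue circles and B87 as orange triangles. Shading marks the values called by edgeR, 8 for TGFβ1 in Smad4-off cells, 6 in Smad4-on cells, 3 for *Smad4* under TGFβ1 and 2 under SB505124. A zero for *Cxcl12* in B87 stands for no counts in either library.

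The neutrophil attractants *Cxcl1* and *Cxcl5*, the detected CXCR2 ligands within the naming rule, had their lowest counts in Smad4-on cells under TGFβ1. *Cxcl1*, the main such ligand of mouse epithelium, stood in B73 at 17.4 CPM in Smad4-off and 1.78 CPM in Smad4-on cells under SB505124, and at 2.96 and 1.22 CPM under TGFβ1. In B87 its levels in the same order were 28.6, 14.4, 2.69 and 0.816 CPM. Both lines were highest in Smad4-off cells under SB505124 and lowest in Smad4-on cells under TGFβ1. In Smad4-off cells TGFβ1 lowered *Cxcl1* 7.65-fold (log2 fold change -2.94 ± 0.68, adjusted p = 0.0344), with no overlap between the groups. In Smad4-on cells the fall was 6.64-fold (-2.73 ± 0.81, adjusted p = 0.039), and it was uneven, at -0.51 in B73 and -4 in B87 on the log2 scale. The first call was lost when any 1 of the 4 libraries compared was left out (adjusted p up to 0.256), and the second when any 1 library other than the B73 SB505124 Smad4-on library was left out (up to 0.267), with log2 fold changes from -3.69 to -0.89. The *Smad4* effect did not pass under either treatment (-1.5 ± 0.84 under TGFβ1 and -1.7 ± 0.64 under SB505124, adjusted p = 0.332 and 0.331).

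*Cxcl5*, also a CXCR2 ligand, showed the steepest grading. Its counts in B73 were 259 and 23 in Smad4-off and Smad4-on cells under SB505124 and 6 and 0 under TGFβ1, and in B87 they were 33, 8, 1 and 0. The counts fell at each step in both lines, and the 4 SB505124 libraries (0.333 to 12.9 CPM) lay above the 4 TGFβ1 libraries (0 to 0.257 CPM). The last step, *Smad4* under TGFβ1, rests on 6 counts against 0 in B73 and 1 against 0 in B87. Its bound was at least 1-fold in the group mean and it was not called (adjusted p = 0.123), so a lowering there is not shown. *Smad4* lowered it 7.62-fold under SB505124 (log2 fold change -2.93 ± 0.38, adjusted p = 0.0274). TGFβ1 lowered it 41.4-fold in Smad4-off cells (-5.37 ± 0.48, adjusted p = 0.0024), and in B87 that rests on 33 counts against 1, a ratio of 29.1 with a 95% counting interval of 4.87 to 1180. In Smad4-on cells under TGFβ1 no read was counted, which makes *Cxcl5* at least 5.15-fold lower in the group mean (floor of 3 counts per library), at least 8.12-fold in B73 and at least 2.18-fold in B87 (adjusted p = 0.00477). Of these 3 calls, that for *Smad4* under SB505124 was lost without either Smad4-off SB505124 library, the B73 Smad4-on SB505124 library or either Smad4-off TGFβ1 library (adjusted p up to 0.324). The others were lost without the B73 TGFβ1 library of the Smad4 state compared (0.0588 and 0.0859).

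*Cxcl15*, a neutrophil attractant first known from lung epithelium, was nearly absent under TGFβ1. It had 75 and 86 counts in the B73 and B87 Smad4-off cells under SB505124 and 9 and 182 in the Smad4-on cells. Under TGFβ1 it had 1 count in B73 Smad4-off cells and 0 in the other 3 libraries. The lines therefore moved apart with *Smad4* under SB505124 (log2 fold change -2.72 in B73 and 0.98 in B87). Under TGFβ1 its counts were too few to compare the Smad4 states. TGFβ1 lowered it at least 26.3-fold in Smad4-on cells in the group mean (adjusted p = 0.021) and at least 49.5-fold in B87. In Smad4-off cells it was at least 25.3-fold lower in B87, and in B73 75 counts against 1 give a ratio of 87.4 (interval 15.2 to 3500, adjusted p = 0.035). The call in Smad4-off cells was lost without either Smad4-off TGFβ1 library (adjusted p up to 0.257) and that in Smad4-on cells without the B87 TGFβ1 library (0.126).

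These genes are neighbors. On chromosome 5 (GRCm38) *Cxcl5* (90759360-90761624), *Cxcl3* (90786103-90789600), *Cxcl15* (90794534-90803067), *Cxcl1* (90891241-90893115) and *Cxcl2* (90903871-90905938) lie in that order on the plus strand within 146.6 kb. *Cxcl3* and *Cxcl2*, the 2 members of the row that were not detected, had 14 and 5 counts in all under SB505124 and 0 and 1 under TGFβ1. The summed level of the CXCR2 ligands *Cxcl1*, *Cxcl2*, *Cxcl3* and *Cxcl5* reached 31.1 (B73) and 30.2 CPM (B87) in Smad4-off cells under SB505124. It was 3.08 and 14.8 CPM in Smad4-on cells under SB505124, 3.21 and 2.79 CPM in Smad4-off cells under TGFβ1, and 1.22 and 0.816 CPM in Smad4-on cells under TGFβ1. In the first of these groups *Cxcl1* made up most of the sum in both lines, and *Cxcl5* added 12.9 CPM in B73 and 1.45 CPM in B87.

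**Figure D3:**
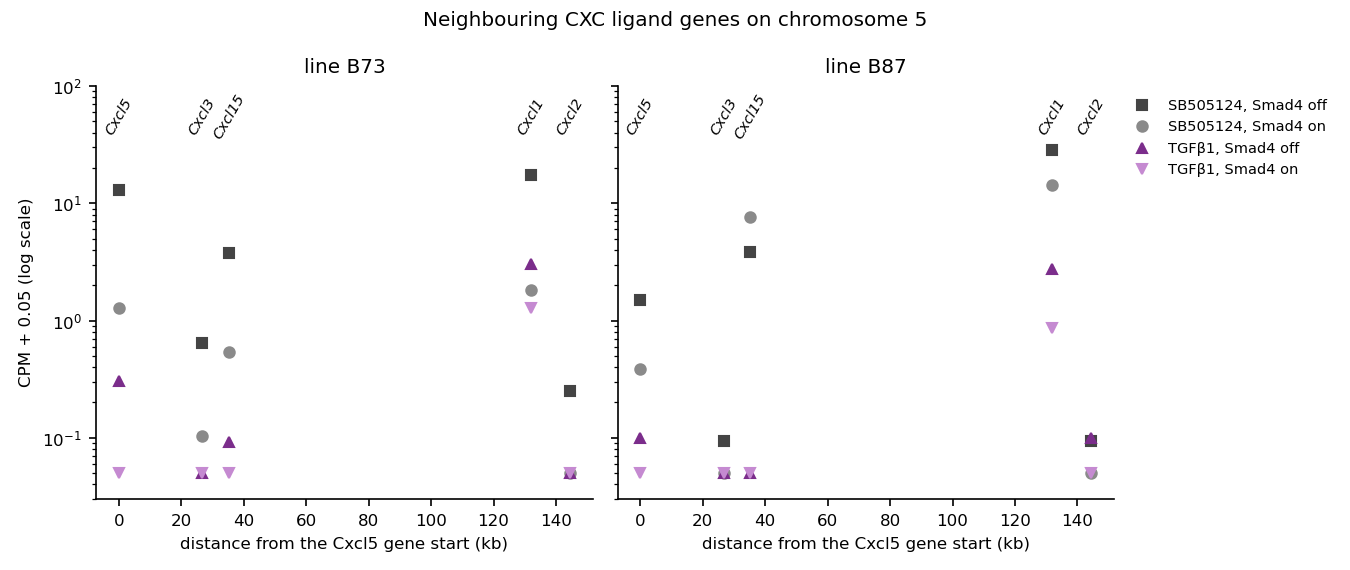
Levels of the 5 neighboring CXC ligand genes of chromosome 5, as CPM plus 0.05 on a log axis, against the distance of each gene's start from that of *Cxcl5* in kb, for B73 and B87. Symbols mark the 4 groups, 1 library each. The TGFβ1 libraries (purple) lie below the SB505124 libraries (grey) for *Cxcl5* and *Cxcl15* in both lines. *Cxcl3* and *Cxcl2*, between and beyond them, did not meet the detection rule, although *Cxcl3* had 12 counts in the B73 Smad4-off SB505124 library.

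*Ccl20* (chr1:83116766-83119167, plus strand), the CCR6 ligand that draws IL-17-producing and dendritic cells, stood apart in 1 group. It stood at 2.5 CPM in both lines in Smad4-off cells under SB505124 and between 0.054 and 0.548 CPM in the other 6 libraries. *Smad4* lowered it 9.62-fold under SB505124 (log2 fold change -3.27 ± 0.55, adjusted p = 0.0432), from 50 counts to 1 in B73 (a ratio of 46.2, interval 7.92 to 1860) and from 57 to 11 in B87. TGFβ1 lowered it 5.74-fold in Smad4-off cells (-2.52 ± 0.5, adjusted p = 0.0217). In Smad4-on cells its value for TGFβ1 was -0.06 ± 0.73 and under TGFβ1 its value for *Smad4* was -0.8 ± 0.69 (adjusted p = 0.963 and 0.528). The difference between the 2 *Smad4* effects was 2.47 ± 0.93 on the log2 scale (adjusted p = 0.413). The *Smad4* call was lost whichever of the 8 libraries was left out (adjusted p 0.0572 to 0.171, log2 fold change -5.21 to -2.61), and the TGFβ1 call without the B73 library of either group or the B87 TGFβ1 library (up to 0.176).

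*Ccl2* (chr11:82035571-82037453, plus strand), the principal monocyte attractant, was raised by TGFβ1 and lowered by *Smad4*. In B73 it stood at 5.09 and 0 CPM in Smad4-off and Smad4-on cells under SB505124 and at 15.4 and 1.58 CPM under TGFβ1. In B87 it stood at 5.58, 1.08, 34.7 and 3.57 CPM. All 4 Smad4-on libraries lay below all 4 Smad4-off libraries, and within each Smad4 state and line the TGFβ1 library was the higher. TGFβ1 raised it 4.27-fold in Smad4-off cells (log2 fold change 2.09 ± 0.49, adjusted p = 0.0346) and 4.64-fold in Smad4-on cells (2.21 ± 0.69, adjusted p = 0.0466). In Smad4-on cells the lines gave 4.14 (B73) and 1.64 (B87) on the log2 scale, and B73 was at least 9.76-fold higher, since its SB505124 library had 0 counts. *Smad4* lowered it 9.64-fold under TGFβ1 (-3.27 ± 0.53, adjusted p = 0.0164), at -3.21 in B73 and -3.25 in B87. Under SB505124 the value was -3.39 ± 0.65 (adjusted p = 0.0682), at least 31.4-fold lower in B73 where 102 counts met 0, and DESeq2 called it (adjusted p = 0.0419). The other *Ccl2* values did not pass in DESeq2 (adjusted p = 0.335, 0.0892 and 0.0627 in the order given). The *Smad4* call under TGFβ1 was lost whichever of the 4 libraries compared was left out (up to 0.13). The TGFβ1 call in Smad4-off cells was lost without either Smad4-off TGFβ1 library or the B87 Smad4-off SB505124 library (up to 0.236), and that in Smad4-on cells when any 1 of the TGFβ1 libraries or the B73 Smad4-on SB505124 library was left out (up to 0.181). The latter value fell to 1.59 without that B73 library and was 8.24 without the B87 Smad4-on SB505124 library, when the remaining library of the group had 0 counts and the fitted value depends on the prior count. *Ccl7*, the neighboring CCR2 ligand on chromosome 11, had 2 counts in all under SB505124 and 22 under TGFβ1, too few to test.

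*Ccl5* and *Ccl9*, which bind CCR1, lie beside each other on chromosome 11 at 83525778-83530518 and 83572919-83578636 on the minus strand. *Ccl5* had 2, 2, 10 and 0 counts in B73 and 22, 18, 39 and 8 in B87, in the order SB505124 Smad4 off and on, then TGFβ1 off and on. Both lines were highest in Smad4-off cells under TGFβ1. B87 was lowest in Smad4-on cells under TGFβ1, while the other B73 counts, from 0 to 2, were too few to rank. *Smad4* lowered it 6.27-fold under TGFβ1 (log2 fold change -2.65 ± 0.58, adjusted p = 0.044), at least 2.8-fold in B73, and the call was lost whichever of the 8 libraries was left out (adjusted p 0.0589 to 0.177, log2 fold change -5.97 to -2.35). Its response to TGFβ1 was 1.27 ± 0.49 in Smad4-off and -1.1 ± 0.66 in Smad4-on cells, neither of which passed (adjusted p = 0.144 and 0.243).

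*Ccl9* stood at 5.61 CPM in B73 and 6.13 CPM in B87 in Smad4-off cells under TGFβ1, above the 1.54 to 2.95 CPM of the other 6 libraries. TGFβ1 raised it 2.69-fold in Smad4-off cells (log2 fold change 1.43 ± 0.3, adjusted p = 0.0243). The call was lost without either TGFβ1 library or the B87 SB505124 library of that comparison (adjusted p up to 0.196). In Smad4-on cells the value was 0.41 ± 0.31 (adjusted p = 0.349). The value for *Smad4* under TGFβ1 was -1.17 ± 0.29, just past 2-fold but not past the adjusted threshold (0.0627).

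*Cxcl16* (chr11:70453983-70459984, minus strand), a membrane-bound ligand of CXCR6 that also serves as a scavenger receptor, rose with TGFβ1 in both Smad4 states. The 4 SB505124 libraries lay between 5.03 and 11.4 CPM and the 4 TGFβ1 libraries between 15.2 and 28.5 CPM, without overlap. It rose 2.86-fold in Smad4-off cells (log2 fold change 1.52 ± 0.35, adjusted p = 0.0328) and 2.92-fold in Smad4-on cells (1.55 ± 0.36, adjusted p = 0.0162). On the log2 scale the lines B73 and B87 gave 0.7 and 2.36 in Smad4-off cells and 1.48 and 1.58 in Smad4-on cells. DESeq2 with the line called both (0.000754 and 0.000363). The first call was lost without the B87 library of either group or the B87 SB505124 Smad4-on library (up to 0.205, with log2 fold changes from 0.96 to 2.16 over the left-out libraries), and the second whichever of the 4 libraries compared was left out (up to 0.0928). Of the stretches of 75 bases in the *Cxcl16* model, 15.4% are shared, chiefly with *Zmynd15*, which overlaps it by 552 exon bases on the other strand, so part of its counts depends on how strand was handled, which was not stated.

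*Cxcl12* (chr6:117168535-117181367, plus strand), the CXCR4 ligand, separated the lines. In B73 it had 298 and 902 counts in Smad4-off and Smad4-on cells under SB505124 and 905 and 2076 under TGFβ1, or 14.9, 48.7, 38.8 and 106 CPM. In B87 it had 0 counts in all 4 libraries. B73 was therefore at least 113-fold, 391-fold, 259-fold and 693-fold higher, in that order. Within B73, TGFβ1 raised it 2.6-fold in Smad4-off and 2.17-fold in Smad4-on cells, and *Smad4* raised it 2.73-fold under TGFβ1 and 3.27-fold under SB505124. These rest on 1 library against 1, since B87 adds nothing to them, and the edgeR calls (adjusted p = 0.0235, 0.0161, 0.031 and, not passing, 0.0508) have no replicate of *Cxcl12* behind them. DESeq2 gave 0.672, 0.636, 0.669 and 0.904. Leaving out a B73 library of the groups compared left no *Cxcl12* counts in 1 group and ended or turned the call, to a log2 fold change as low as -0.7 in Smad4-off cells, -0.51 in Smad4-on cells and -0.18 for *Smad4* under TGFβ1. The call for *Smad4* under TGFβ1 and that for TGFβ1 in Smad4-off cells were also lost without the B87 Smad4-off TGFβ1 library. The fibroblast and stellate markers, whose cells are a known source of CXCL12, summed to 1.51 to 5.87 CPM in B73 and 43.8 to 647 CPM in B87. Most of the B87 sum was *Col1a1*, at 25.9 to 627 CPM, and *Dcn*, *Lum*, *Des* and *Fap* were not detected. Which cells gave the *Cxcl12* counts was not tested.

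The remaining 4 ligands were called in none of these comparisons. *Cx3cl1* (chr8:94772009-94782427, plus strand), a membrane-tethered ligand of CX3CR1, ran from 9.8 to 29.1 CPM. In Smad4-on cells TGFβ1 lowered it 1.75-fold (log2 fold change -0.81 ± 0.23, adjusted p = 0.033), short of the 2-fold limit. The fall was uneven, at -1.3 in B73 and -0.35 in B87 on the log2 scale. *Ccl25*, the CCR9 ligand of thymus and small intestine, stayed between 9.34 and 12.3 CPM in all 8 libraries, with values from -0.18 to 0.05 on the log2 scale in the 4 comparisons. *Ccl27a*, a CCR10 ligand, ran from 0.6 to 1.37 CPM, and 33.3% of its stretches of 75 bases are shared with another annotated gene, chiefly *Gm20878*, so its counts are uncertain. *Cxcl10*, the interferon-responsive CXCR3 ligand, ran from 0.108 to 2.84 CPM and was highest in the B87 Smad4-off TGFβ1 library. Its value for *Smad4* under TGFβ1 was -1.88 ± 0.65 (adjusted p = 0.142). The other CXCR3 ligands, *Cxcl9* and *Cxcl11*, were not detected.

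Whether *Smad4* acted differently under the 2 treatments was tested as an interaction. None of the 13 ligands was called by edgeR, with 0.189% of all genes called, and 2 had an unadjusted p under 0.05, *Ccl20* and *Ccl5*. DESeq2 called 0 of the other 11 and gave no adjusted p for these 2. A *Smad4* effect that passed under 1 treatment only is therefore not shown to differ between treatments.

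The lines themselves differed in 4 ligands, where 8.37% of all genes were called. *Ccl5* was 6.48-fold (log2 difference, B87 minus B73, 2.7 ± 0.42, adjusted p = 0.00574) and *Cxcl10* 3.78-fold (1.92 ± 0.46, adjusted p = 0.0286) higher in B87. *Cxcl5* was 6.51-fold lower in B87 (-2.7 ± 0.36, adjusted p = 0.00513), and *Cxcl12* had 0 counts there. The calls for *Ccl5* and *Cxcl12* held whichever library was left out. That for *Cxcl5* was lost without either Smad4-off SB505124 library (adjusted p up to 0.0719) and that for *Cxcl10* without either line's Smad4-on SB505124 or Smad4-off TGFβ1 library (up to 0.139). *Cx3cl1* was 1.58-fold higher in B87 (adjusted p = 0.0299), under the 2-fold limit. Whether the TGFβ1 response differed between lines was tested with a line-by-treatment term, for which edgeR called 0% of all genes (1198 at an unadjusted p under 0.05, and 25 calls by DESeq2) and no ligand. For the *Smad4* response, edgeR called 0.392% of all genes and no ligand. DESeq2 called no ligand in either and gave no adjusted p for 4 of them, *Ccl5*, *Ccl20*, *Ccl27a* and *Cxcl10*. For the *Smad4* response *Cxcl15* came nearest, with a difference of 3.96 ± 0.65 on the log2 scale (adjusted p = 0.1), falling with *Smad4* in B73 and not in B87. For the TGFβ1 response *Cx3cl1* came nearest, with a difference of 0.69 ± 0.18 (adjusted p = 0.534).

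The receptors for these ligands were not detected in the same cells. None of the 19 chemokine receptor genes reached 10 counts in 2 libraries. Of 5 atypical receptors, which bind chemokines without G protein signaling, only *Ackr3*, which takes up CXCL12, was detected, at 10.4 to 25.7 CPM. It was not called in any of the 4 comparisons, with values from -0.44 to 0.72 on the log2 scale. Of the 2 platelet-type CXC ligands outside the naming rule, *Pf4* was at 0 in all libraries. *Ppbp*, a CXCR2 ligand in its cleaved form that the CXCR2 sum above leaves out, ran from 0 to 1.63 CPM and was not called. In the order SB505124 Smad4 off and on, then TGFβ1 off and on, it had 30, 0, 12 and 5 counts in B73 and 0, 1, 21 and 32 in B87. Its value for TGFβ1 was 0.04 ± 1.33 in Smad4-off cells and 5 ± 2.28 in Smad4-on cells (adjusted p = 0.99 and 0.138), the latter opposite in sign to *Cxcl1* and *Cxcl5*.

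Several genes of NF-κB and of its feedback share regulation with inflammatory chemokines. Genes of this list were called in both directions for TGFβ1 in Smad4-on cells, and in a single direction within each other comparison. All 19 of the list were tested. TGFβ1 in Smad4-on cells raised 3 and lowered 2, where 5.62% of all tested genes were called higher and 8.31% lower. *Tnfaip3*, the A20 brake on NF-κB, rose (log2 fold change 2.18 ± 0.17, adjusted p = 0.00027), as did *Traf1* (1.19 ± 0.27, adjusted p = 0.0163) and *Nfkb2*. *Icam1*, an adhesion molecule, fell (-1.59 ± 0.41, adjusted p = 0.0248), as did *Bcl3* (-1.53 ± 0.17, adjusted p = 0.000942). In Smad4-off cells, where 3.11% of all genes were called higher, 2 rose, *Tnfaip3* (1.68) and *Traf1* (1.23). *Smad4* under TGFβ1 lowered 4, *Icam1* (-2.52), *Traf1* (-1.55), *Bcl3* (-1.26) and *Nfkbie* (-1.21), and under SB505124 it lowered 1, *Nfkbie* (-1.54). Over all genes, *Smad4* was called to lower 1.8% under TGFβ1 and 0.455% under SB505124. The subunit gene *Nfkb1* passed in none, with values from -0.23 to 0.06. The list's median log2 fold change was 0.21 for TGFβ1 in Smad4-off and 0.35 in Smad4-on cells, and -0.14 and -0.15 for *Smad4* under TGFβ1 and SB505124.

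Of the 19 genes listed for the IL-1, TNF, IL-17 and Toll-like pathways, together with the receptor genes *Ifngr1*, *Ifngr2* and *Osmr*, 14 were tested. *Il1rn*, the natural antagonist of IL-1, fell with TGFβ1 in Smad4-on (log2 fold change -4.57 ± 0.37, adjusted p = 0.000274) and Smad4-off cells (-1.96 ± 0.33, adjusted p = 0.0121), and rose with *Smad4* under SB505124 (1.93 ± 0.31, adjusted p = 0.0388). *Il1r1*, the IL-1 receptor, fell with *Smad4* under TGFβ1 (-1.78) and SB505124 (-1.11), and *Ifngr1* fell under TGFβ1 (-1.08). TGFβ1 in Smad4-on cells also lowered *Ifngr2* (-1.25) and raised *Il1rap* (1.03). Of 9 tested interferon-responsive genes, 3 fell with TGFβ1 in Smad4-on cells, where 8.31% of all genes were called lower. They were *Ifit1* (-2.12), *Irf7* (-1.84) and *Isg15* (-1.52), and none of the 9 was called in the other 3 comparisons. *Cxcl10*, which answers to the same factors, had -0.91 ± 0.69 with TGFβ1 in Smad4-on cells (adjusted p = 0.353).

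Among colony-stimulating factors and cytokines secreted along with chemokines, 7 of 8 were tested. TGFβ1 in Smad4-on cells raised *Csf2* (log2 fold change 5.41 ± 0.61, adjusted p = 0.000985), *Csf3* (2.48 ± 0.37, adjusted p = 0.00288) and *Lif* (2.38 ± 0.18, adjusted p = 0.000213), which encode GM-CSF, G-CSF and the cytokine LIF. It lowered *Il33*, an alarmin (-5.07 ± 0.15, adjusted p = 1.35e-05). In Smad4-off cells *Csf2* (3.88) and *Lif* (1.33) rose and *Il33* (-1.9) fell. *Smad4* lowered *Il33* under TGFβ1 (-2.87), and none passed under SB505124. The neutrophil growth factor *Csf3* thus rose in the comparison in which the neutrophil attractants *Cxcl1*, *Cxcl5* and *Cxcl15* fell. Of the proteases that process or shed ligands, 5 of 8 were tested, and 1 call was made, a rise of *Furin* with TGFβ1 in Smad4-on cells (1.33). *Adam10*, the sheddase of CX3CL1 and CXCL16, had values from -0.16 to 0.17.

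**Figure D4:**
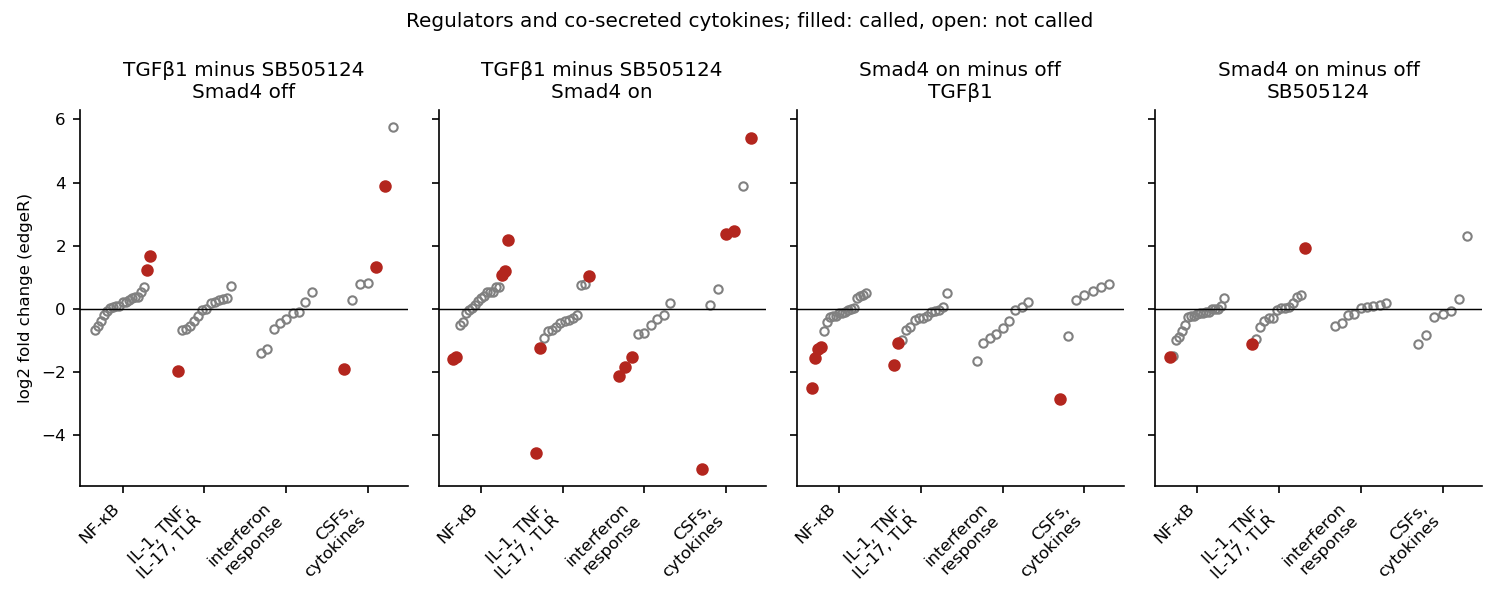
Log2 fold change from edgeR of each tested gene in 4 lists of regulators and co-secreted cytokines in the 4 comparisons. The lists are NF-κB (19 genes), interferon response (9) and colony-stimulating factors and cytokines (7). The list labelled IL-1, TNF, IL-17 and TLR (14) also holds the receptor genes *Ifngr1*, *Ifngr2* and *Osmr*. Filled red points were called and open points were not. Taken over the 4 comparisons together, called genes lie on both sides of 0 in every list except interferon response, where they lie below 0. For *Smad4* under TGFβ1, all called genes lie below 0. *Csf2* at 5.41 and *Il33* at -5.07 are the widest apart, for TGFβ1 in Smad4-on cells.

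Markers of epithelium and of other cell types moved with some of these comparisons. Of the 7 epithelial markers, *Krt19* (log2 fold change -2.33) and *Cdh1* (-2.31) were called lower and *Cldn4* higher with TGFβ1 in Smad4-on cells, and *Krt19* (-1.46) and *Cldn4* were called in the same directions in Smad4-off cells. *Cldn4*, at 0 counts under SB505124, had 69 and 906 counts in B73 and 4 and 64 in B87 in Smad4-off and Smad4-on cells under TGFβ1, and was also called higher with *Smad4* there (3.96). The epithelial sum had means of 3020 and 3920 CPM under SB505124 and 2570 and 3470 CPM under TGFβ1. Between lines, 5 of the 7 were called lower in B87, among them *Krt7* (-4.86), *Krt8* (-2.51) and *Cdh1* (-2.06). Of all genes, 8.37% were called between lines in either direction. The fibroblast and stellate sum had group means of 23.2 and 77 CPM in Smad4-off and Smad4-on cells under SB505124 and 94.6 and 326 CPM under TGFβ1, with *Col1a1*, the locus that also holds the hairpin, called higher in all 4 comparisons. The endothelial sum had means of 3.71, 1.68, 16.6 and 4.11 CPM in the same order, of which *Kdr* held 3.48, 1.44, 15.6 and 1.56 CPM. *Kdr*, like *Ccl2*, was highest in Smad4-off cells under TGFβ1 and lowest in Smad4-on cells under SB505124. *Cdh5*, the other detected endothelial marker, had 0.0499, 0.164, 0.891 and 2.4 CPM and was highest in Smad4-on cells under TGFβ1. The leukocyte sum had means of 4.65, 3.92, 2.84 and 1.99 CPM, most of it *Cd68*. The part of these cells or genes in the ligand results was not tested.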

How the data were processed

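RNA was measured in 8 libraries, grouped by the line, Dox state and treatment in the sample labels. The authors made stranded poly(A) libraries, sequenced 75-base single-end reads and, per the labels and the methods of the study, trimmed them with Trimmomatic 0.36, aligned them to GRCm38 (mm10) with STAR 2.5.3a and counted them with featureCounts 1.6.3 (FastQC 0.11.5 is also named). The deposited values are raw counts per gene, 1 column per library. Settings for strand and for reads that match several genes are not given in the sources used here. Coordinates are those of the deposited table, and of its genes with an entry in GENCODE M21, 99.92% lay at an overlapping position.

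Counts were tested with edgeR 4.0.16 in R 4.3.3 (TMM, filterByExpr, quasi-likelihood F-test) on 14301 genes, in 1 model with the 4 groups and the line. The SE was approximated from the log2 fold change and the F statistic (their ratio, with F under a square root). Values within a line used log2 CPM with a prior count of 2, and folds against 0 counts used a floor of 3 counts per library. Every detected ligand is named with its values, and of each other list the called genes with the largest change. Members and lists were chosen with earlier results of these data known. The line pairs the libraries: deviations of same-line libraries correlated at r = 0.642 to 0.774 across genes in 6 pairs of groups. The study named DESeq2 with no covariate. Alternatives were the fit without the line, DESeq2 1.42.0 with the line, other size factors, other filters, only the 4 libraries compared, and each library left out. On simulated data with 200 of 14301 genes changed by 2 on the log2 scale, in the comparison of *Smad4* under TGFβ1, edgeR with the line recovered 87.5%, with 1.69% of its calls false, and DESeq2 81.5% with 0% false. The simulated counts kept the line differences, took their spread from a fit with the line and changed each gene equally in both lines. An allele that all groups share is not reported here.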

Additional observations from a re-analysis of the deposited data

Results flagged for a closer look

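*Ccl5* moved in opposite directions with TGFβ1 in the 2 Smad4 states, up in Smad4-off and down in Smad4-on cells in both lines. The log2 fold change was 1.42 in B73 and 0.94 in B87 in Smad4-off cells, and -1.09 and -0.75 in Smad4-on cells. The difference between the states was -2.37 ± 0.82 in edgeR's interaction test (adjusted p = 0.355 over all genes), and it rests on 0 to 10 counts per library in B73.

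*Ccl25* had small values of opposite sign for TGFβ1 in the 2 lines. They were below 0 in B73 (log2 fold change -0.03 in Smad4-off and -0.24 in Smad4-on cells) and above 0 in B87 (0.13 and 0.14). The difference between lines was 0.27 ± 0.2, with an adjusted p of 0.743 in edgeR's line-by-treatment test, so no difference in response is shown.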

How the results depend on the processing

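The number of ligands called depended most on the line in the model, the replicate block that pairs the libraries. Without it, the counts for *Smad4* under TGFβ1 and under SB505124 and for TGFβ1 in Smad4-on and Smad4-off cells went from 3, 2, 6 and 8 to 0, 0, 1 and 0. Of 19 called single values in these comparisons it kept 1, while the self-test recovered 53.5% of changed genes without the line, with 0% of calls false. DESeq2 with the line called 0 for *Smad4* under TGFβ1 and kept 16 of 22 called values. With no filter on low counts the counts rose to 6 and 5 for *Smad4* under TGFβ1 and SB505124, to 1 for the line difference in the TGFβ1 response and to 2 for that in the *Smad4* response. With at least 10 counts in every library, only 6 of the detected ligands among 11848 genes were left to test, and the counts were 0, 0, 2 and 3, and 0 for the line difference. A fit on only the 4 libraries compared gave 0 for *Smad4* under SB505124.

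Leaving out each library in turn gave 0 to 3 calls for *Smad4* under TGFβ1, 0 to 3 under SB505124, 1 to 5 for TGFβ1 in Smad4-on and 1 to 8 in Smad4-off cells, and kept 108 of 184 called values. Where it left 1 library in a group, that library was assumed to vary as the others do.

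Directions turned for few values. *Cxcl15* for *Smad4* under SB505124, which was not called, went to 0.11 without the block and ranged from -2.97 to 1.03 with a library left out. *Cxcl16* for the same comparison, also not called, ranged from -1.17 to 0.036. *Cxcl12* ranged from -0.18 to 1.45 for *Smad4* under TGFβ1, from -0.37 to 1.78 under SB505124, from -0.51 to 1.12 for TGFβ1 in Smad4-on and from -0.703 to 1.85 in Smad4-off cells, since only B73 holds its counts. DESeq2's size factors in edgeR kept all 23 called values. Depth limits the low ligands most, since *Ccl5*, *Cxcl5*, *Cxcl15* and *Ccl20* have groups at 0 to 11 counts per library.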
